A study of Homo sapiens with 12 samples.

Results

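Expression of 10 genes of the BCL2 family was followed across 12 RNA-seq libraries labelled A549, an established human lung adenocarcinoma line. The genes were the anti-apoptotic BCL2, BCL2L1, BCL2L2 and MCL1, the effector BAK1, and the BH3-only genes BCL2L11, PMAIP1, BID, BIK and BMF. They were chosen by name, as family members outside a list of p53 targets that held BAX and BBC3, and each matched 1 of the 61541 genes in the count table. PMAIP1 and BID are described elsewhere as p53 targets too, so the set is not free of that pathway. All cells had been transduced with a Cas9 guide 14 days before RNA was taken and had no other treatment. The 4 groups held 3 libraries each: a non-targeting guide (gNTC1) alone, the same guide in co-culture, a guide against TYMS (gTYMS2) alone, and that guide in co-culture. TYMS encodes thymidylate synthase, which makes the thymidylate that DNA synthesis uses. According to the series text, parental A549 cells were the partner of the co-cultured knockout and restored its proliferation. The labels do not name the partner of the co-cultured control, and do not say whether partner cells were removed before RNA was taken. Each arm had 1 guide, so effects of the gene and of the guide cannot be told apart. Nothing in the labels says that the 3 libraries of a group came from separate cultures, so p-values measure only the spread between these libraries.

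The BCL2 family sets whether the outer membrane of mitochondria stays intact. BAK1 and BAX form pores that release cytochrome c, anti-apoptotic members such as BCL2, BCL-XL and MCL1 hold them in check, and BH3-only proteins bind the anti-apoptotic members or activate the pore formers. Much of this control lies in protein binding, cleavage, phosphorylation and turnover, which transcript counts do not measure.

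Library totals ran from 14921371 to 35723762 counts. Values below are CPM (counts relative to library size, with TMM scaling), and a gene was called at an edgeR adjusted p under 0.05. TYMS was at 90.2 to 101 CPM in the 6 libraries labelled control and at 10.7 to 21.3 CPM in the 6 labelled knockout. Co-culture did not raise it in the knockout (11.04 CPM on average, against 20.8 CPM alone). TYMS shares 39.1% of its exon bases with ENOSF1 on the opposite strand. The epithelial keratins KRT8 (2361 to 9101 CPM) and KRT18 (1263 to 3849 CPM) were abundant in every library, and PTPRC and CD3E of immune cells had at most 1 count. Other markers differed by label. KRT7 was at 1212 to 2528 CPM in the control-labelled and 4392 to 7401 CPM in the knockout libraries. In that order KRT19 was at 1188 to 2140 and 215 to 546 CPM, and CDH1 at 45.3 to 70.7 and 15.1 to 28.1 CPM. VWF of endothelial cells was at 1.03 to 1.64 and 0 to 0.179 CPM. COL1A1 of fibroblasts was at 10.0 to 24.1 CPM over all libraries, while COL1A2 and DCN had at most 2 counts. CD68, a macrophage marker, was at 0 to 0.218 CPM in the control-labelled and 0.851 to 3.58 CPM in the knockout libraries. The libraries labelled control stood apart from the cell line's known genome: A549 is known to lack CDKN2A and MTAP, yet these were at 54.6 to 116 and 43.7 to 79.4 CPM there. In the knockout libraries they reached at most 0.119 and 0.647 CPM. SMARCA4, in which A549 is known to carry an inactivating mutation, was at 158 to 202 CPM in the control-labelled libraries and 10.8 to 13.5 CPM in the knockout, and EPCAM at 94.3 to 119 and 0.149 to 0.912 CPM. Comparisons of knockout with control rest on these libraries and cannot be given without them. What sets these libraries apart follows the guide label, so it cannot be told apart from the knockout. Its part in the results was not tested. Co-cultured against lone knockout compares no control-labelled library, but these enter its filter on low counts, scaling and estimate of spread, and it is also given from its own 6 libraries.

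All 10 genes passed the filter on low counts, and with the main settings the calls were mainly of BH3-only genes. BIK fell 15.4-fold from the lone control-labelled libraries to the lone knockout, as a ratio of mean CPM, and was 4.15-fold higher in knockout cells in co-culture than alone, still below the control-labelled level. PMAIP1 was 2.46-fold and BMF 1.77-fold higher in knockout cells in co-culture than alone, and BID was 1.88-fold and BMF 1.67-fold lower in the lone knockout than in the lone control-labelled libraries. Between knockout and control, both alone, 3 of the 10 genes were called, all lower (BID, BIK and BMF), where 56.6% of the 16768 genes tested were called (28% higher and 28.6% lower). With offsets for the GC content of transcripts, 6 of the 10 were called there, 2 higher and 4 lower. The share of all genes called with these offsets is not given here, so that count has no background to be read against. The anti-apoptotic BCL2L1 and BCL2L2 were higher, and the anti-apoptotic MCL1 was lower, as were PMAIP1, BID and BIK. BMF was not called with these offsets. Between co-cultured and lone knockout, 3 were called, all higher (PMAIP1, BIK and BMF), where 11.4% of genes were called (5.97% higher and 5.4% lower). Between knockout and control, both co-cultured, BCL2L1 and PMAIP1 were called higher and BIK lower, where 49.4% of genes were called (24.1% higher and 25.3% lower). The co-culture difference in knockout minus that in control (the interaction) was called for BIK, with a positive value, where 1.8% of genes were called (1.51% positive and 0.286% negative). The median log2 fold change of the 10 genes was -0.355 for the first of these comparisons and 0.415 for the second, where the medians of all genes tested were 0.09 and 0.01. The first 2 comparisons share the lone knockout libraries, so a low value there lowers the one and raises the other. Co-culture of the control-labelled cells gave 0 calls among the 10 genes and 0 among all genes by edgeR and by DESeq2 (0% of genes). At an unadjusted edgeR p under 0.05 there were 540 genes, and 0 of the 10. The log2 fold changes of the 10 genes in that comparison lay between -0.27 and 0.24. These are bulk libraries, in which fewer cells that express a gene and less RNA per cell cannot be told apart.

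**Figure D1:**
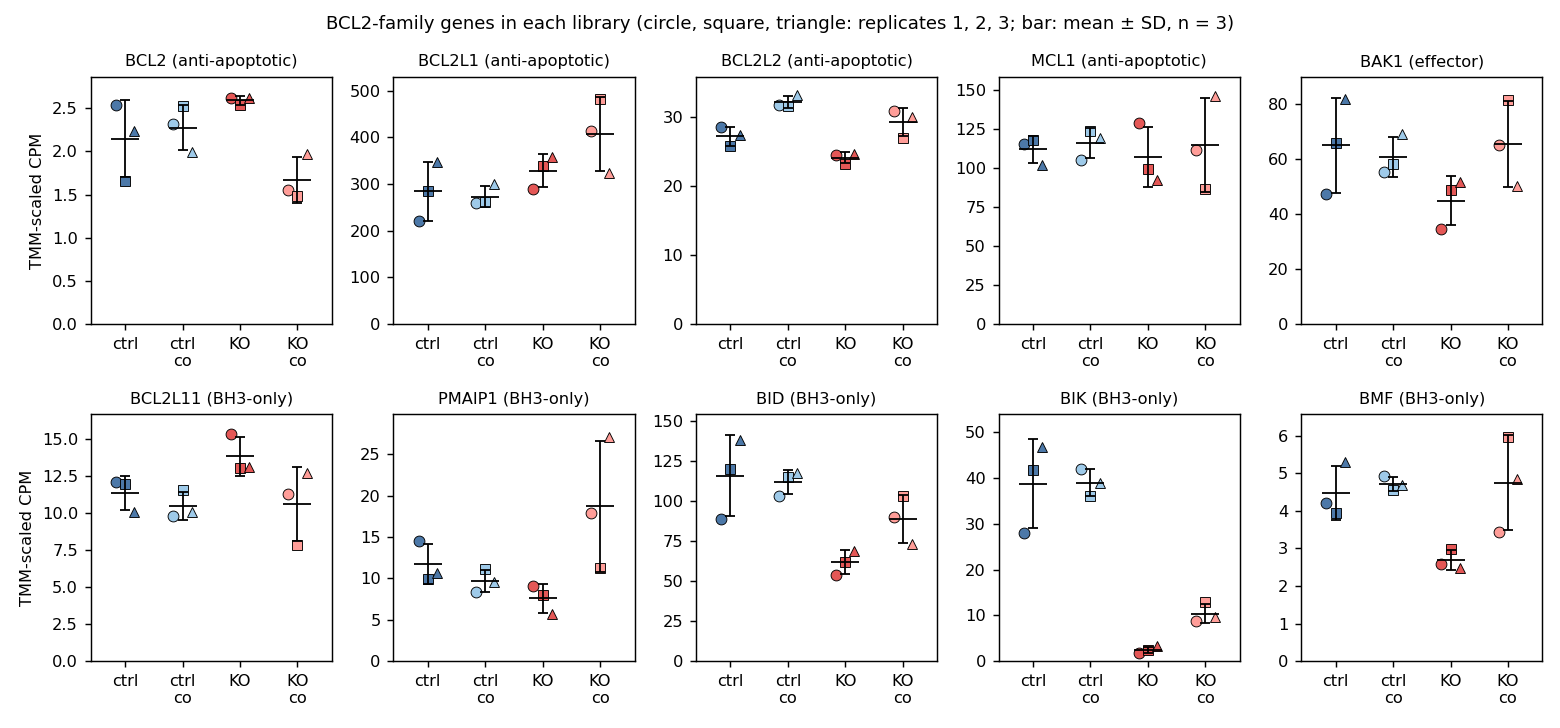
TMM-scaled CPM of each of the 10 genes (vertical axis from 0, 1 panel per gene) in the 12 libraries, grouped as control (ctrl), co-cultured control (ctrl co), knockout (KO) and co-cultured knockout (KO co), with bars at the mean ± SD of 3 libraries. BIK stands at 27.9 to 46.6 CPM in the 6 control-labelled libraries, at 1.86 to 3.28 CPM in the knockout grown alone and at 8.83 to 12.9 CPM in its co-culture.

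BIK (chr22:43110748-43129712 on the plus strand, GENCODE 29 on GRCh38) encodes a BH3-only protein of the endoplasmic reticulum that binds anti-apoptotic family members. In replicates 1, 2 and 3 it was at 27.9, 41.6 and 46.6 CPM in the lone control-labelled libraries and at 41.8, 35.9 and 38.9 CPM in the co-cultured ones. The lone knockout had 1.86, 2.39 and 3.28 CPM and the co-cultured knockout 8.83, 12.9 and 9.58 CPM. The knockout groups overlapped neither each other nor the control-labelled groups. The lone knockout was lower than the lone control-labelled group by edgeR (log2 fold change -3.96, SE 0.27, adjusted p = 8.75e-08), and the co-cultured knockout was higher than the lone knockout (2.07, SE 0.25, adjusted p = 0.000354). With both kinds of cell in co-culture the knockout was still lower (-1.90, SE 0.23, edgeR adjusted p = 2.38e-05). The interaction was 2.06 (SE 0.34, edgeR adjusted p = 0.00783), and the control-labelled cells alone and in co-culture averaged 38.7 ± 9.71 and 38.9 ± 2.94 CPM (SD, n = 3). BIK was called in each of these 4 comparisons under all settings tried and with any 1 library left out. From the 6 knockout libraries alone, it was the 1 gene of the 10 called. In that fit 664 of all genes were called, 475 higher and 189 lower.

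PMAIP1 (chr18:59899948-59904306, plus strand) encodes NOXA, a BH3-only protein that binds MCL1 and promotes its degradation. The lone control-labelled libraries held 14.6, 9.97 and 10.7 CPM and the co-cultured ones 8.42, 11.1 and 9.57 CPM. The lone knockout held 9.13, 7.96 and 5.71 CPM and the co-cultured knockout 17.9, 11.2 and 27.0 CPM. All 3 co-cultured knockout libraries lay above all 3 lone ones, and the highest of them was 2.41 times the lowest. Co-cultured exceeded lone knockout by 1.29 on the log2 scale (edgeR adjusted p = 0.0183, SE 0.30), and co-cultured knockout exceeded co-cultured control-labelled cells by 0.94 (SE 0.30, edgeR adjusted p = 0.0179). From its own 6 libraries the first of these was 1.29 with an edgeR adjusted p of 0.0908, and over the 9 other settings its adjusted p ranged from 4.36e-06 to 0.0908. It was also not called without lone knockout replicate 2 or 3 or co-cultured knockout replicate 1 (1.33, 1.12 and 1.33). Without co-cultured knockout replicate 3, the higher level against co-cultured control-labelled cells was 0.58 with an adjusted p of 0.072 (edgeR). It was not called either without co-cultured control-labelled replicate 1 or 3 (0.85 and 0.90), and its adjusted p with 1 library left out ranged from 0.00229 to 0.072. The lower level of the lone knockout against the lone control-labelled group was not called (-0.62, SE 0.30, edgeR adjusted p = 0.0931). It was called under 6 of the 9 other settings and in 2 of 12 cases with 1 library left out. Among those settings were RLE size factors (edgeR adjusted p = 0.0466), DESeq2 (DESeq2 adjusted p = 0.0417) and only the 2 groups compared (edgeR adjusted p = 0.0436). With GC offsets, which remove each library's trend on transcript GC content, it was -1.07 and called (edgeR adjusted p = 0.00017, range 0.00017 to 0.294 over the other settings). The interaction was not called (1.57, SE 0.42, edgeR adjusted p = 0.0887). That interaction was called under 6 of the 8 other settings, with values of 1.49 to 1.90 over all 8 and adjusted p from 0.000511 to 0.209. In this and later paragraphs the other settings include GC offsets within groups. These were added after the data were seen, and their p-values are too small.

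BMF (chr15:40087890-40108892, minus strand) encodes a BH3-only protein that is tethered to myosin motors through dynein light chain. It was at 4.21, 3.94 and 5.30 CPM in the lone control-labelled libraries and at 4.92, 4.55 and 4.68 CPM in the co-cultured ones. The lone knockout had 2.58, 2.98 and 2.49 CPM, below every other library, and the co-cultured knockout had 3.45, 5.96 and 4.85 CPM, around the control-labelled values. The lone knockout was lower than the lone control-labelled group (log2 fold change -0.74, edgeR adjusted p = 0.0195, SE 0.24) and the co-cultured knockout was higher than the lone one (0.82, SE 0.24, edgeR adjusted p = 0.0435). Neither call was firm. With GC offsets the first became 0.03 (edgeR adjusted p = 0.932) and the second 0.58 (edgeR adjusted p = 0.0685). From its own 6 libraries the second had an edgeR adjusted p of 0.123, and it was not called in 8 of 12 cases with 1 library left out (0.62 to 0.91): lone control-labelled replicate 2, each co-cultured control-labelled library, each lone knockout library, and co-cultured knockout replicate 2. The first was not called without lone control-labelled replicate 3 (-0.63) or lone knockout replicate 1 or 3 (-0.71 in both cases). Over all settings other than leaving out libraries, adjusted p ranged from 0.0111 to 0.942 for the first and from 0.00942 to 0.123 for the second.

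The start regions of PMAIP1 and BMF are shown because both genes were called higher in knockout cells in co-culture than alone. A short motif also lies at nearly the same distance from both RefSeq starts. The sequences are from the RefSeq promoter table for GRCh38.p14, which held 13 windows for 7 of the 10 genes, and end where the GENCODE 29 gene model begins. Capitals mark the cAMP-response element half-site TGACG on either strand, and BMF lies on the minus strand.
PMAIP1, chr18:59899746-59899947: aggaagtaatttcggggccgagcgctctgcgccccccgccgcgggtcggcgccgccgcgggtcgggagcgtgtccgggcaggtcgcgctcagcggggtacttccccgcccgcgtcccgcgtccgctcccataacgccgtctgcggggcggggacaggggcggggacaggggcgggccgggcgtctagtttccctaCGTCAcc
BMF, chr15:40108893-40109129: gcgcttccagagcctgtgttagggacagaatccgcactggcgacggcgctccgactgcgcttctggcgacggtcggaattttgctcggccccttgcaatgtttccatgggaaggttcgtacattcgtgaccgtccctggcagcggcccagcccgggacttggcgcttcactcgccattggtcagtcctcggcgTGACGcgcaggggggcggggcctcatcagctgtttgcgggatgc
For each gene the window of the most upstream start was used, and the other windows were not searched here. Counted in the 250 bases before the RefSeq start, the half-site began 55 bases before the start in PMAIP1 and 57 bases in BMF. It read as CGTCA in PMAIP1 and as TGACG in BMF. The printed sequences end before those RefSeq starts, and the distance to their ends is not alike in PMAIP1 and BMF. The half-site was also found in the windows of BCL2 and BCL2L1, at 225 and 201 bases, and not in those of BAK1, BCL2L11 or BID. The windows of BCL2 and BCL2L11 lay wholly inside the GENCODE 29 gene model, downstream of where it begins. TGACG lies on either strand in 21.2% of 35116 such windows, so its presence in 4 of 7 is a description of letters and not of binding. The full element TGACGTCA, which contains the half-site, matched in 0 of the 7 windows and 1.6% of all. AP-1 (TGAGTCA) and the E-box (CACGTG) matched in 0 of the 7 windows as well, and a forkhead site (TGTTTAC) matched in that of BCL2L11 (4.2%, 6.3% and 3% of all windows). The GC box (GGGCGG) occurred in the windows of BAK1, BCL2L11, BMF and PMAIP1, with 4 copies in the last, and in 42.6% of all windows. CCAAT lay in those of BAK1, BCL2L11 and BMF and in 32% of all. BCL2L2, MCL1 and BIK were not matched in the table.

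BID (chr22:17734138-17774770, minus strand) encodes the BH3-only protein that caspase-8 cleaves, linking death receptors to mitochondria. Its 3 lone control-labelled libraries read 88.8, 120 and 138 CPM and the co-cultured ones 103, 115 and 117 CPM. The lone knockout read 54.0, 62.2 and 68.9 CPM, the lowest 3 of the 12 libraries, and the co-cultured knockout 89.9, 103 and 73.4 CPM. The difference between the lone groups was called (log2 fold change -0.91, edgeR adjusted p = 0.000825, SE 0.18) and kept its call under every setting and with any 1 library left out. Between the co-cultured groups the difference was -0.33 and not called (edgeR adjusted p = 0.133). There 4 of the 9 other settings and 1 of 12 cases with 1 library left out called BID lower. The higher level of the co-cultured over the lone knockout was 0.52 (SE 0.18, edgeR adjusted p = 0.0719). All 3 co-cultured libraries lay above all 3 lone ones there, and 6 of the 9 other settings called it, with values from 0.39 to 0.66 and adjusted p from 0.00221 to 0.117. Those 9 settings include the GC offsets within groups, whose p-values are too small.

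BCL2L11 (chr2:111119378-111168447, plus strand) encodes BIM, which binds all main anti-apoptotic members and can activate BAX and BAK. It held 12.1, 11.9 and 10.1 CPM in the lone control-labelled libraries and 9.79, 11.6 and 10.1 CPM in the co-cultured ones. The lone knockout held 15.3, 13.0 and 13.1 CPM, and the co-cultured knockout 11.3, 7.86 and 12.7 CPM. The lone knockout libraries were the highest 3 of the 12. No comparison called it: the log2 fold change was 0.28 for lone knockout against lone control (95% interval -0.15 to 0.72, edgeR adjusted p = 0.245) and -0.38 for co-cultured against lone knockout (-0.81 to 0.05, edgeR adjusted p = 0.218). BCL2L11 shares 10.9% of its exon bases with MIR4435-2HG on the opposite strand, a non-coding gene at 106 to 560 counts. The strand setting of the counting is not given in the sources used here, so reads of that stretch cannot be told apart.

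Among the anti-apoptotic genes, BCL2L1 was the highest per kilobase of exon in every group. BCL2L1 (chr20:31664452-31723989, minus strand) encodes BCL-XL, which holds BAX and BAK in check, and a short isoform with the opposite effect that gene counts do not separate. It was at 221, 286 and 347 CPM in the lone control-labelled libraries and 258, 261 and 299 CPM in the co-cultured ones. The lone knockout had 290, 338 and 359 CPM and the co-cultured knockout 414, 481 and 324 CPM. In co-culture all knockout libraries exceeded all control-labelled ones, by 0.57 on the log2 scale (edgeR adjusted p = 0.0212, SE 0.19). That call held under the 9 other settings and was lost with 1 library left out in 4 of 12 cases: control-labelled co-culture replicates 1 and 2 (0.53 and 0.54), and co-cultured knockout replicates 1 and 2 (0.54 and 0.40). Its adjusted p over those 12 cases ranged from 0.00454 to 0.101. Lone knockout and lone control-labelled values overlapped (0.21, 95% interval -0.20 to 0.61, edgeR adjusted p = 0.357; 0.55 and called with GC offsets), as did co-cultured and lone knockout (0.31, -0.10 to 0.71, edgeR adjusted p = 0.284). ABALON, an antisense gene over 43.0% of the exon bases of BCL2L1, had 0 to 5 counts.

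MCL1 (chr1:150574551-150579738, minus strand) encodes a short-lived anti-apoptotic protein that NOXA and BIM bind. Its lone control-labelled libraries read 116, 118 and 102 CPM and the co-cultured ones 105, 124 and 120 CPM. Those of the lone knockout read 129, 99.7 and 92.5 CPM and of the co-cultured knockout 112, 86.6 and 147 CPM. The groups overlapped in every comparison, and the range of the co-cultured knockout took in all other libraries. Log2 fold changes were -0.06 for lone knockout against lone control (95% interval -0.47 to 0.34, edgeR adjusted p = 0.786) and 0.10 for co-cultured against lone knockout (-0.30 to 0.50, edgeR adjusted p = 0.747). The intervals leave room for changes in either direction of up to about 0.50 on the log2 scale. With GC offsets the first was -0.42 (edgeR adjusted p = 0.00446, range 0.00446 to 0.858 over the other settings), and with library size as the only scaling it was 0.10.

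BCL2 (chr18:63123346-63320128, minus strand), the founding anti-apoptotic member, was scarce, with 27 to 66 counts per library. It was at 2.54, 1.66 and 2.24 CPM in the lone control-labelled libraries and 2.31, 2.52 and 1.995 CPM in the co-cultured ones. The lone knockout had 2.62, 2.54 and 2.61 CPM, and the co-cultured knockout 1.55, 1.49 and 1.98 CPM. All 3 co-cultured knockout libraries lay below all 3 lone ones, with a difference of -0.63 on the log2 scale (SE 0.23) that was not called (edgeR adjusted p = 0.0917). Without co-cultured knockout replicate 3 it was -0.77 (edgeR adjusted p = 0.0383, range 0.0383 to 0.268 with 1 library left out). Lone knockout and control-labelled values overlapped (0.27, 95% interval -0.24 to 0.78, edgeR adjusted p = 0.34), and GC offsets turned this to -0.20.

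BCL2L2 (chr14:23298790-23311759, plus strand) encodes BCL-W, an anti-apoptotic protein known for its roles in neurons and in the testis. Its values were 28.5, 25.7 and 27.3 CPM in the lone control-labelled libraries and 31.6, 31.5 and 33.2 CPM in the co-cultured ones. The lone knockout had 24.4, 23.2 and 24.6 CPM, and the co-cultured knockout 30.8, 27.0 and 29.97 CPM. Replicates lay close together, and the groups of each comparison did not overlap, but the steps were small. Log2 fold changes were -0.17 for lone knockout against lone control (edgeR adjusted p = 0.239), 0.28 for co-cultured against lone knockout (edgeR adjusted p = 0.143) and 0.24 for co-cultured against lone control (edgeR adjusted p = 1). With GC offsets the first was 0.52 (edgeR adjusted p = 0.0137), opposite in direction. BCL2L2 shares 19.4% of its exon bases with the read-through gene BCL2L2-PABPN1 (16 to 71 counts), so its counts are uncertain to that extent.

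BAK1 (chr6:33572547-33580293, minus strand) encodes BAK, the pore former that sits in the outer mitochondrial membrane. It was at 47.1, 65.7 and 81.7 CPM in the lone control-labelled libraries and 55.0, 58.0 and 68.9 CPM in the co-cultured ones. The lone knockout had 34.6, 48.5 and 51.4 CPM, and the co-cultured knockout 64.9, 81.3 and 50.2 CPM. Groups overlapped in every comparison. Lone knockout against lone control gave -0.53 (SE 0.23, edgeR adjusted p = 0.0604) and co-cultured against lone knockout 0.55 (SE 0.23, edgeR adjusted p = 0.127), and GC offsets turned the first to 0.10. Of the 9 other settings 3 called the first as lower and 3 called the second as higher, with adjusted p from 0.000825 to 0.473 and from 0.00166 to 0.184. The 0.000825 came from GC offsets within groups, which were added after the data were seen and give p-values that are too small. With 1 library left out, 4 of 12 cases called the first and 1 of 12 the second, with values from -0.73 to -0.36 and from 0.35 to 0.71. BAX, the other pore former, rose in the lone knockout (1.21, SE 0.21, edgeR adjusted p = 0.000328).

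**Figure D2:**
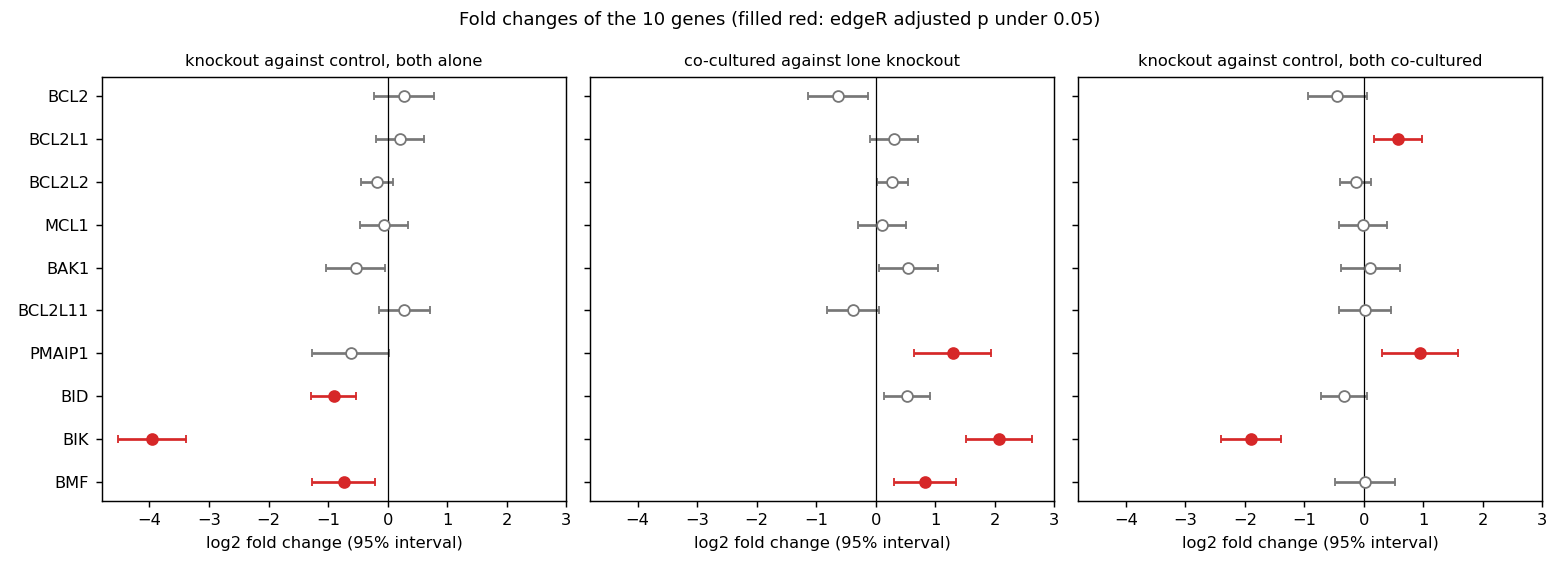
Log2 fold changes of the 10 genes (horizontal axis) with 95% intervals from edgeR in 3 comparisons, with filled red points where the adjusted p was under 0.05. BIK lies farthest from 0 in each panel, at -3.96, 2.07 and -1.90, and intervals of BCL2L1, MCL1 and BCL2L11 include 0 in the first 2 panels.

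Levels of different genes were compared as CPM per kilobase of exon. In the lone control-labelled libraries BCL2L1 led with 85.9 ± 19.1 (SD, n = 3), without overlap with the next gene. BIK followed at 40.6, BAK1 at 29.3, BID at 26.0 and MCL1 at 25.7, each overlapping its neighbour in this order. BCL2L2 (6.49) and PMAIP1 (5.25) overlapped each other, and BCL2L11 (1.71), BMF (0.823) and BCL2 (0.182) were each apart from the gene above. In the lone knockout BIK had rank 7 of 10, at 2.63 CPM per kilobase, and overlapped PMAIP1 above it (3.40) and BCL2L11 below it (2.07). In the co-cultured knockout BIK was at 10.9 and PMAIP1 at 8.37 CPM per kilobase, overlapping each other, and PMAIP1 also overlapped BCL2L2 at 6.98. BCL2 was last in each group, at 0.142 to 0.220 CPM per kilobase. Exon lengths were those of all annotated transcripts joined, from 953 bases for BIK to 11765 for BCL2, so a gene that uses few of its exons is understated.

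**Figure D3:**
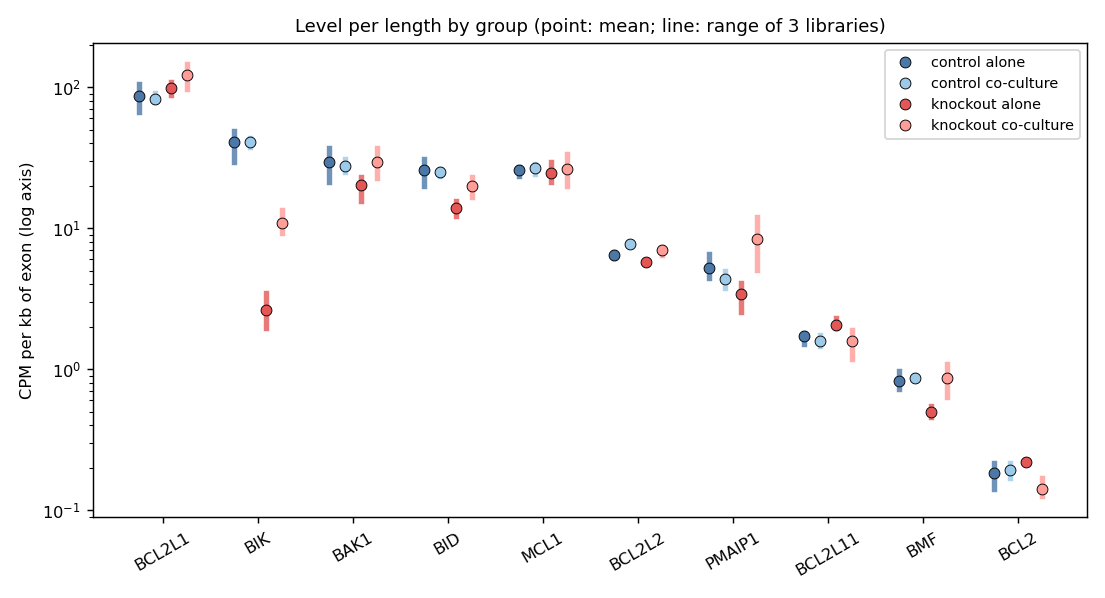
Level of each gene in each group in CPM per kilobase of exon (log axis), with points at the mean and lines over the range of 3 libraries. BCL2L1 is highest in all 4 groups (82.4 to 123 on average), while BIK goes from 40.6 in the lone control-labelled group to 2.63 in the lone and 10.9 in the co-cultured knockout.

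Summed over the 5 BH3-only genes, the level was 58.3, 77.7 and 87.3 CPM per kilobase in the lone control-labelled libraries and 73.3, 71.1 and 73.9 in the co-cultured ones. It was 21.0, 22.6 and 23.9 CPM per kilobase in the lone knockout. Co-cultured knockout libraries had 39.8, 44.0 and 41.5 CPM per kilobase, all above the lone ones and below the control-labelled ones. The 4 anti-apoptotic genes summed to 118 ± 17.4, 117 ± 8.16, 130 ± 6.19 and 156 ± 16.6 CPM per kilobase in the same order of groups (SD, n = 3). The ratio of the BH3-only to the anti-apoptotic sum was 0.626 ± 0.038, 0.624 ± 0.040, 0.173 ± 0.003 and 0.269 ± 0.026. BIK made up 54.1% and 56.1% of the BH3-only sum in the lone and co-cultured control-labelled groups, 11.6% in the lone and 26.1% in the co-cultured knockout. BID made up 34.9%, 34.6%, 61.6% and 47.8% in these groups, and BCL2L1 72.1%, 70.5%, 76.3% and 78.1% of the anti-apoptotic sum. These sums describe transcripts of 9 chosen genes and carry no test. They leave out other BH3-only genes of high level. In the same order of groups, BAD was at 86.5, 70.7, 41.6 and 50.5 CPM per kilobase. BBC3 was at 16.9, 13.3, 13.9 and 38.2. The anti-apoptotic BCL2A1, also left out, was at 0.405, 0.643, 5.16 and 16.2. The shares and ratios therefore hold only within the chosen genes.

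Replicates within a group differed along transcript GC content. Over 12069 genes, the Spearman correlation of a library's deviation from its group mean with GC content ran from -0.832 in co-cultured knockout replicate 3 to 0.822 in replicate 2 of that group. The 4 genes under 51% GC (BCL2, PMAIP1, MCL1 and BCL2L11, at 45.9% to 50.2%) were all highest in replicate 3 of the co-cultured knockout. Of the 6 genes at 54.1% to 60.1% GC, 5 were highest in replicate 2. Without replicate 3, 5681 of all genes were called between co-cultured and lone knockout instead of 1907, and 6 of the 10 instead of 3. What set this trend was not tested. The GC offsets used as an alternative also remove any difference between groups that follows GC content.

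**Figure D4:**
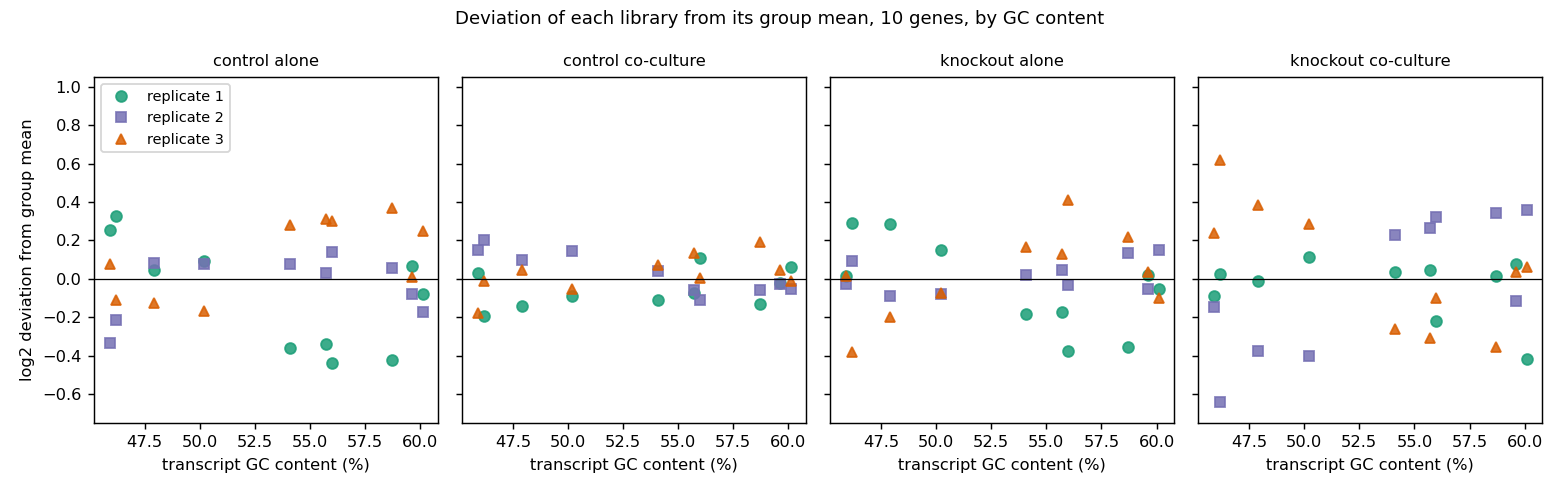
Log2 deviation of each gene from its group mean in each library (vertical axis) against the gene's transcript GC content in percent (horizontal axis), by group, with colours and shapes for replicates 1 to 3. In the co-cultured knockout the 4 genes of 45.9% to 50.2% GC are highest in replicate 3, and 5 of the 6 genes of 54.1% to 60.1% GC are highest in replicate 2.

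Around the 10 genes, 48 genes of 4 lists were followed, of which 46 were tested. Between knockout and control, both alone, 15 were called higher and 12 lower, and between co-cultured and lone knockout 9 were called higher and 2 lower. Their median log2 fold changes were 0.08 and 0.18, and those of all genes tested 0.09 and 0.01. Over all genes 28% were called higher and 28.6% lower in the first comparison and 5.97% and 5.4% in the second. Of the 11 other BCL2 family genes tested, 4 were higher and 5 lower in the first and 3 higher in the second comparison, where the shares over all genes were 28%, 28.6% and 5.97%. BCL2A1, an anti-apoptotic NF-kB target, averaged 0.441 ± 0.149 CPM in the lone control-labelled libraries, 5.62 ± 0.584 in the lone knockout and 17.6 ± 3.11 in the co-cultured knockout (SD, n = 3), and rose in both (3.67 and 1.65, edgeR adjusted p = 6.97e-07 and 0.00135). HRK, a BH3-only gene, fell in the lone knockout (-3.54, SE 0.40, edgeR adjusted p = 1.04e-05). BCL2L12 fell (-1.38, edgeR adjusted p = 0.000172), as did the BH3-only gene BAD (-1.06, edgeR adjusted p = 0.00512), though GC offsets turned BAD to 0.14. BBC3, which encodes the BH3-only PUMA, averaged 53.8 ± 12.3, 42.3 ± 7.78, 44.0 ± 7.01 and 121 ± 27.6 CPM in lone control-labelled, co-cultured control-labelled, lone knockout and co-cultured knockout libraries (SD, n = 3). It was not called between the lone groups (-0.29, edgeR adjusted p = 0.277), where GC offsets gave 0.85, and was higher in co-cultured than in lone knockout libraries (1.46, SE 0.22, edgeR adjusted p = 0.00166).

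The death receptor route, which ends in cleavage of BID, had 5 of 8 genes higher and 0 lower in the lone knockout than in the lone control-labelled cells, and 4 of 8 higher in knockout cells in co-culture than alone. Over all genes 28% were higher and 28.6% lower in the first and 5.97% higher in the second. The list's median log2 fold changes were 0.77 and 0.49, against 0.09 and 0.01 for all genes. The lists were chosen with earlier results of these data known, so such counts and medians are a description and not a test. TNFRSF10B, a TRAIL receptor, was 1.002 higher on the log2 scale in the first (edgeR adjusted p = 9e-06) and 0.63 higher in the second (edgeR adjusted p = 0.00441). CASP10, an initiator caspase, was 1.94 and 0.84 higher (edgeR adjusted p = 2.04e-06 and 0.0101). CFLAR, whose product blocks caspase-8 activation, was 2.42 and 0.42 higher (edgeR adjusted p = 6.91e-09 and 0.0349), the second not called from the 6 knockout libraries alone (edgeR adjusted p = 0.0877). In that comparison CASP10 lost its call without lone knockout replicate 2 (0.79) or co-cultured knockout replicate 1 (0.82). Of the 17 genes for cytochrome c release, the apoptosome and caspases, 4 were higher and 5 lower in the lone knockout, and 1 was higher in knockout cells in co-culture than alone, against 56.6% of all genes called in the first and 5.97% higher in the second. CASP9 (-0.80), an initiator caspase, fell in the lone knockout, and VDAC3, an outer membrane channel, rose (0.76), with edgeR adjusted p of 0.00281 and 0.00135. With GC offsets VDAC3 was 0.18 and no longer called (edgeR adjusted p = 0.372). Of the 10 genes for turnover and tethering of MCL1, BIM and BMF, 2 were higher and 2 lower in the first comparison, and 1 was higher and 2 lower in the second, against 56.6% of all genes called in the first and 5.97% higher and 5.4% lower in the second. DYNLL2, the dynein light chain that tethers BMF, fell in the lone knockout (-1.05, edgeR adjusted p = 1.31e-05), while USP9X, which removes ubiquitin from MCL1, rose (1.52, edgeR adjusted p = 0.00749) and was lower in knockout cells in co-culture than alone (-1.60, edgeR adjusted p = 0.0298). That lower level was not called from the 6 knockout libraries alone (edgeR adjusted p = 0.099). TRIM17, a ubiquitin ligase for MCL1, was at 0.278 ± 0.133 CPM in the lone control-labelled and 0.858 ± 0.467 CPM in the lone knockout libraries (SD, n = 3), and was called higher (1.65, edgeR adjusted p = 0.0132), but not without lone control-labelled replicate 3 or lone knockout replicate 1 (1.47 and 1.15).

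Genes with the most similar profile were found by the root mean square difference of log2 CPM, centred over the 12 libraries, among 10255 genes with a symbol and a mean of at least 5 CPM. For BIK they were B3GNT3 (0.33), a glycosyltransferase gene, and RAB37 (0.354), where the spread of BIK about its own mean was 1.64. B3GNT3 averaged 37.9, 36.02, 3.33 and 9.09 CPM in lone and co-cultured control-labelled and lone and co-cultured knockout libraries. For PMAIP1 they were SAT1 (0.265), of polyamine breakdown, and IFNGR1 (0.294), a receptor chain for interferon gamma, against a spread of 0.553. SAT1 averaged 229, 226, 178 and 452 CPM in the same order. For BMF they were TTLL1 (0.15) and MANF (0.177), against a spread of 0.382, and for BID they were TMEM101 (0.053) and VPS18 (0.065), against 0.404. These likenesses are over libraries that share group, depth and GC trend.

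**Figure D5:**
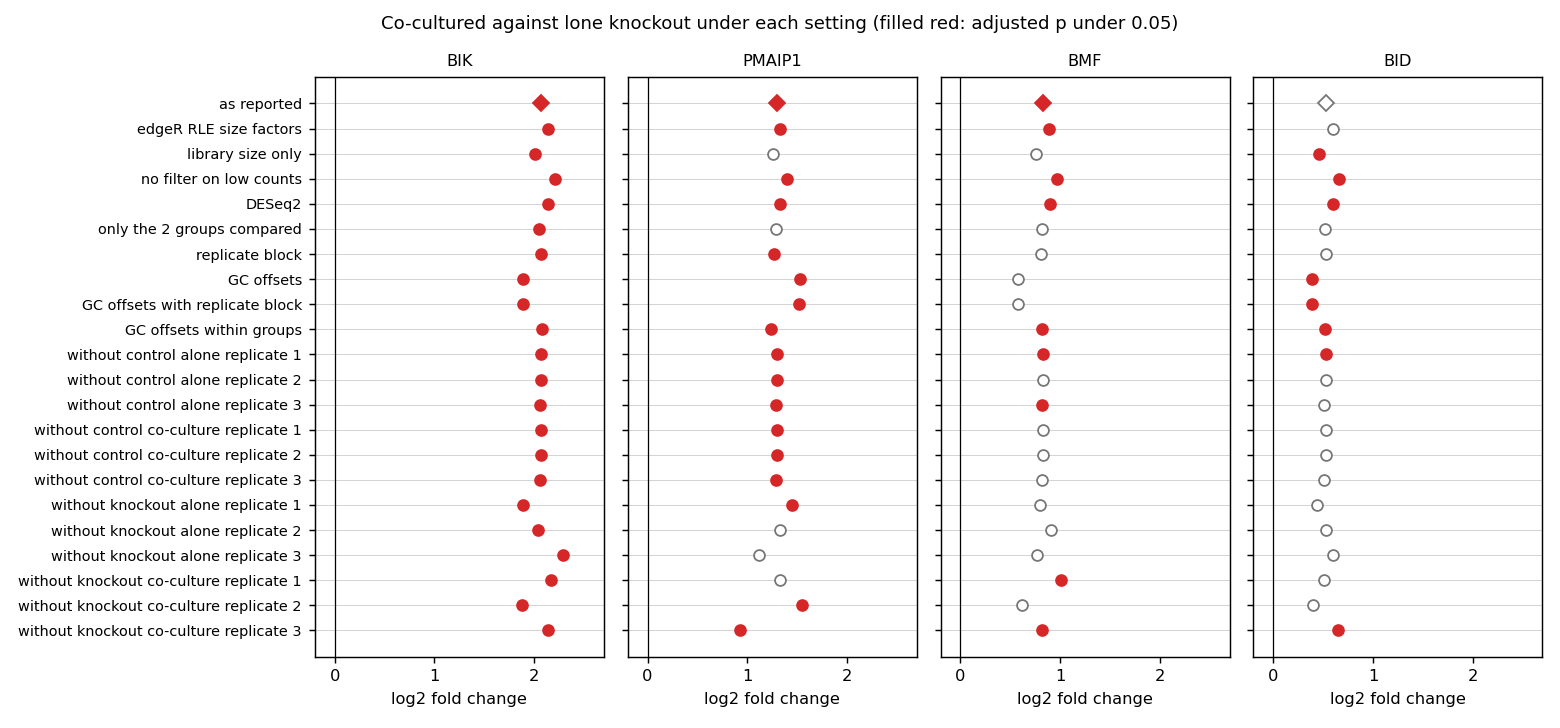
Log2 fold change of co-cultured against lone knockout for BIK, PMAIP1, BMF and BID (horizontal axis) as reported and under each alternative setting (vertical axis), with filled red points where the adjusted p was under 0.05. BIK stays between 1.88 and 2.29 and is called in every case, while PMAIP1 (0.93 to 1.55) and BMF (0.58 to 1.004) lose their call under some settings and BID (0.39 to 0.66) gains one under some.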

How the data were processed

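RNA-seq counts from 12 libraries in 4 groups of 3 were used. The authors deposited a table of raw counts, unnormalised whole numbers, with 61541 Ensembl identifiers. The submitters' processing notes name FastQC, STAR 2.7.9a, featureCounts, R 4.2.1, DESeq2 1.36.0 and GRCh38 (hg38), without their roles. The annotation and the strand setting are not given in the sources used here. Symbols were found for 42045 identifiers, and GENCODE 29 (GRCh38), which gave positions, exon lengths and GC content, held 58366. The counts were analysed as deposited in R 4.3.3 with edgeR 4.0.16 (limma 3.58.1): filterByExpr kept 16768 genes, all 10 members among them, libraries were scaled by TMM, and 4 group means were fitted to all 12 libraries with the robust quasi-likelihood F-test, which gave 5 comparisons. P-values were adjusted by Benjamini-Hochberg over all genes tested, with a threshold of 0.05. The procedure was tested on counts simulated without any trend on GC content. That test does not cover the trend seen in these libraries. The biological coefficient of variation was 22.1%, and 14.9 counts made 1 CPM in the shallowest library.

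The 10 members and the pathway lists were chosen with earlier results of these data known. Named genes were the members, TYMS, BAX, BBC3, BAD, the 3 genes of each list with the smallest p between knockout and control alone, and for the 4 members with most calls the 2 genes of most similar profile. Not every gene named by this rule is reported here. CDKN2A, MTAP, SMARCA4 and the cell type markers were added as checks of the labels. Alternatives were edgeR's RLE size factors, library size only, no filter on low counts, DESeq2 1.42.0, only the 2 groups compared, the replicate number as a block, GC offsets (a spline of each library's log counts on transcript GC content) with and without that block, and leaving out each library. GC offsets within groups, and levels per length with library size only, were added after the data were seen.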

Additional observations from a re-analysis of the deposited data

Results flagged for a closer look

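The effect of co-culture was compared between knockout and control-labelled cells by the interaction term in edgeR, and 3 of the genes named by rule were called. BIK had an interaction of 2.06 (adjusted p = 0.00783, edgeR), with 3 of 3 co-cultured knockout libraries above all 3 lone ones. BBC3 had an interaction of 1.81 (adjusted p = 0.011, edgeR), and TYMS one of -0.89 (adjusted p = 0.0107, edgeR). With no filter on low counts the interaction of TYMS was not called, at -0.78 (adjusted p = 0.103, edgeR). BCL2L15, a family gene of the lists that was outside the naming rule and is named after its values were seen, was called as well (2.43, adjusted p = 0.0248, edgeR), at 3 to 23 counts per knockout library and 6 to 17 per control-labelled library.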

How the results depend on the processing

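Calls of BIK in 4 comparisons and of BID between the lone groups held under every setting run. Planned GC offsets, without and with the replicate block, turned these values. For knockout against control, both alone, they gave BCL2 -0.20 and -0.20, BCL2L2 0.52 and 0.52, BAK1 0.10 and 0.10, BMF 0.025 and 0.024, BBC3 0.85 and 0.85, and BAD 0.14 and 0.14. Co-cultured against lone knockout gave BCL2L12 -0.21 and -0.21. With both kinds of cell co-cultured they gave BCL2L2 0.20 and 0.20 and BCL2L11 -0.063 and -0.07. Co-cultured against lone control gave BCL2 -0.026 and -0.026, MCL1 -0.039 and -0.041, and BAK1 0.037 and 0.043, and the interaction of BCL2L2 was -0.32 and -0.32. With library size only, values turned for MCL1 (0.10 between the lone groups, 0.044 between the co-cultured groups, interaction -0.052), BCL2L12 (-0.048 in co-cultured against lone knockout), BCL2L1 and BID (0.023 and 0.035 in the control groups) and the interaction of BCL2L2 (-0.068). That scaling moved the median of all genes from 0.09 to 0.24 for the lone groups and from 0.01 to -0.11 for the interaction. Between the co-cultured groups MCL1 was 0.06 with no filter on low counts and 0.003 with only the 2 groups compared, and BMF was -0.004 with the replicate block. BIK in co-cultured against lone control was -0.025 with RLE size factors and -0.021 with DESeq2. The cause was not tested in these cases, and none of them was called in the report except BMF and BAD between the lone groups.

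Of the 10 genes, those called between the lone groups numbered 5 with only the 2 groups compared, 6 with GC offsets without or with the replicate block, and 5 with GC offsets within groups. Between co-cultured and lone knockout they numbered 5 with no filter, 5 with DESeq2, 1 with only the 2 groups and 7 with GC offsets within groups, and between the co-cultured groups 5 with GC offsets without or with the block. The interaction was called for 2 of them with RLE, no filter, DESeq2 and GC offsets without or with the block, and for 4 with GC offsets within groups. All genes called between co-cultured and lone knockout numbered 3340 with no filter, 3173 with DESeq2, 664 with the 2 groups, 1080 with the replicate block, 4948 and 4185 with GC offsets without and with the block, and 6217 with offsets within groups, against 1907. For the interaction these counts were 1342, 890, 179 (block), 1457, 906 and 4669, against 301, and for co-cultured against lone control 2 with no filter and 159 with offsets within groups, against 0. All-gene counts between the lone groups and between the co-cultured groups under these settings are not given here. Pathway genes called between co-cultured and lone knockout numbered 7 with library size only, 18 with no filter, 6 with the 2 groups, 7 with the block, 24 and 21 with GC offsets without and with the block, and 23 within groups, against 11. For the interaction they numbered 4 with no filter, 1 with the block, 8, 5 and 15, against 2. Offsets within groups, chosen after seeing the data, shrink the spread between replicates, so their p-values are too small.

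With 1 library left out, members called ranged from 2 to 5 between the lone groups, 1 to 6 between co-cultured and lone knockout, 1 to 3 between the co-cultured groups and 1 to 2 for the interaction. All genes called ranged from 7959 to 10525 between the lone groups and from 7145 to 8892 between the co-cultured groups. Between co-cultured and lone knockout they ranged from 536 (without co-cultured knockout replicate 1) to 5681 (without replicate 3), and for the interaction from 117 to 3623. Pathway genes ranged from 5 to 23 between co-cultured and lone knockout and from 1 to 11 for the interaction. Values near 0 changed sign. MCL1 ranged from -0.22 to 0.009 between the lone groups, -0.11 to 0.26 between co-cultured and lone knockout, -0.23 to 0.12 between the co-cultured groups, -0.011 to 0.12 in control co-culture and -0.17 to 0.21 in the interaction. BCL2L12 ranged from -0.14 to 0.18 between co-cultured and lone knockout, and the interaction of BCL2L2 from -0.001 to 0.087. Between the co-cultured groups BAK1 ranged from -0.11 to 0.27, BCL2L11 from -0.13 to 0.17 and BMF from -0.21 to 0.17. In control co-culture BCL2 ranged from -0.068 to 0.22, BCL2L1 from -0.21 to 0.11, BAK1 from -0.28 to 0.10, BID from -0.21 to 0.10, BIK from -0.18 to 0.16 and BMF from -0.013 to 0.21.

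Replicate numbers did not pair the libraries over all 4 groups. Over 18 pairs of libraries with the same number, deviations from the group means correlated from -0.603 to 0.491, with 7 above 0.1. In all, 0 libraries correlated best with their own number in every group. Outside the co-cultured knockout, pairs of replicates 1 and pairs of replicates 3 correlated from 0.189 to 0.491, and pairs of replicates 2 from -0.073 to -0.024. Replicates 1 and 3 of the co-cultured knockout correlated from -0.603 to -0.17 with their numbers in the other groups. What lay behind this was not tested. With the replicate block, BMF between co-cultured and lone knockout was 0.81 and not called (edgeR adjusted p = 0.0816), and no other call of the 10 genes changed. Of the pathway genes named, CFLAR (0.43, edgeR adjusted p = 0.0695) and USP9X (-1.59, edgeR adjusted p = 0.0565) lost theirs in that comparison with the block, as they did with library size only (0.37 and -1.62, edgeR adjusted p = 0.155 and 0.0766). Without 1 library CFLAR ranged from 0.39 to 0.47 there and was not called in 7 of 12 cases, and USP9X from -2.29 to -1.27, not called in 4. Depth limits BCL2, BMF and the knockout values of BIK most, with as few as 27, 41 and 44 counts.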
